A study of Homo sapiens with 24 samples.

Results

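The genes described here are 8 genes of cholesterol synthesis that are known targets of the transcription factor SREBP2: HMGCS1, IDI1, FDFT1, SQLE, LSS, SC5D, DHCR7 and INSIG1. They were chosen by name, with earlier results of these data known. Each was measured by adding up the counts of its bins, leaving out detained introns (introns that remain in polyadenylated RNA). Of 13236 gene groups in the deposited tables, 7 were members on their own. The other member, LSS, was found only in a group merged with AP001468.1, a gene model on the same strand. Its bins that lie in LSS alone held almost no counts, so the merged group is given apart and is not counted as LSS.

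Cholesterol is built from acetyl-CoA through mevalonate, isoprenoids and squalene to lanosterol, and a last set of enzymes turns lanosterol into cholesterol. SREBP2 is made as a membrane protein of the endoplasmic reticulum, where SCAP escorts it and INSIG proteins hold it back while sterols are plentiful. When sterols are scarce it moves to the Golgi, is cut free by proteases, and enters the nucleus, where it acts on the promoters of these enzymes together with NF-Y and SP1. INSIG1 is itself a target, which closes a feedback loop. In cultured cells the pathway follows the supply of lipoprotein in the medium.

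The promoters are shown because most members moved together in the course of time in 1 of the 2 experiments below. RefSeq windows of 300 bases (build GRCh38.p14; 250 bases before to 50 after a gene start) were matched by symbol for 6 of the 8 members, with 11 windows among them. Windows of the same gene overlapped in HMGCS1, IDI1 and SC5D, so a match could be counted in more than 1 window. Each motif was searched on both strands, and matches of different motifs were allowed to overlap. CCAAT, the motif named for NF-Y, was found in 8 of 11 windows and in all 6 genes, against 34.6% of all 35116 windows. GGGCGG, named for SP1, was in 10 of 11 windows, against 45.0% of all. CANNTG, an E-box, was in 6 of 11 windows, against 68.7%. The letters TCACNCCAC, a form of the sterol regulatory element, were in 0 of 11 windows, against 1.13%. The 250 bases before the start are printed below for 4 members in the direction of transcription, with CCAAT or its reverse complement ATTGG in capitals:
HMGCS1, chr5:43313413-43313662, minus strand: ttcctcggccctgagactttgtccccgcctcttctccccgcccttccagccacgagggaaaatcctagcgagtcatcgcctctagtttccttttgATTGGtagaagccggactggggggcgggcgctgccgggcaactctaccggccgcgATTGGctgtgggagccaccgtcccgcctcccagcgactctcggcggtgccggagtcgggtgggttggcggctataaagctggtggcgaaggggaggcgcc
INSIG1, chr7:155297628-155297877, plus strand: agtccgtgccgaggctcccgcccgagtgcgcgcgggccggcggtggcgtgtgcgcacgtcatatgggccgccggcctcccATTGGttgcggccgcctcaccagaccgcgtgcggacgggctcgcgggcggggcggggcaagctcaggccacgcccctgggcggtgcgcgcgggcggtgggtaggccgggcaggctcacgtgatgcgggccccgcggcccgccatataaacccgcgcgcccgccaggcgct
DHCR7, chr11:71448394-71448643, minus strand: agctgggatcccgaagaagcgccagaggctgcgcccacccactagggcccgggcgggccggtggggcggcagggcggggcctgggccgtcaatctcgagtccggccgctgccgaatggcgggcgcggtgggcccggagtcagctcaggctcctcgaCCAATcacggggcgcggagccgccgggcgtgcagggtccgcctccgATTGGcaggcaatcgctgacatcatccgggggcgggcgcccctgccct
SC5D, chr11:121292521-121292770, plus strand: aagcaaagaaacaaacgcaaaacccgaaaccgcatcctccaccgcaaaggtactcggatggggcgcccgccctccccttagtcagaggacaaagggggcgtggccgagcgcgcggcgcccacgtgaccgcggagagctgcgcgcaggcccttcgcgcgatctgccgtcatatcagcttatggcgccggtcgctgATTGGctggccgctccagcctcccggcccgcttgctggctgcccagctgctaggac

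Where a gene had several windows, the window with the most CCAAT matches was printed, so the number of matches shown follows that choice. The other window of HMGCS1 and that of DHCR7 held 0 such matches. HMGCS1 and DHCR7 each held 2 such matches in the printed stretch, 155 and 100 bases and 94 and 48 bases before the start. INSIG1 and SC5D held 1 each, 170 and 56 bases before it.

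The cells were HEK293T, a transformed human embryonic kidney line, and every group was grown in the same way, with medium renewed 3 h before treatment. In the OSMI-2 experiment cells received DMSO, the solvent, or 10 µM OSMI-2, an inhibitor of OGT, the enzyme that attaches O-GlcNAc to proteins, for 2 h or 6 h. In the TMG experiment they received DMSO or 5 µM TMG, an inhibitor of the enzyme that removes O-GlcNAc, OGA, which the tables call MGEA5, for 2 h or 6 h. The tables held 23 libraries of polyadenylated RNA, 3 in each of the 8 groups except OSMI-2 at 6 h, which had 2; the third was not analysed here. Libraries are called a, b and c as in the count columns. The labels do not say whether libraries of a group were separate cultures, so p-values measure only the spread between these libraries. In bulk RNA, fewer cells of a type and less RNA per cell cannot be told apart.

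Total counts ran from 39.5 to 100.2 M (mega) per library, and at 2 h and 6 h alike each OSMI-2 library was deeper than all of its DMSO controls. Several libraries stood apart. Detained introns took 1.21%, 0.983% and 0.756% of counts in the DMSO 6 h libraries of the OSMI-2 experiment (a, b and c), against 0.232% to 0.328% in its other libraries and 0.377% to 0.669% in the TMG experiment. Library a of that DMSO 6 h group also had another dependence on base composition: counts changed by 0.649 (log2) per 10 points of transcript GC content, against 1.06 to 1.37 in the other libraries of the experiment and -0.318 to -0.012 in the TMG experiment. The mRNA of an enzyme does not check an inhibitor of its protein, and OGT mRNA was high in these DMSO libraries, with 289, 128 and 170 CPM (counts scaled to a common library size by TMM) against 65.5 and 42.7 with OSMI-2 at 6 h (log2 -1.86 ± 0.335 SE, adjusted p = 0.00035, edgeR quasi-likelihood test). OGT was 0.57 higher on the log2 scale with OSMI-2 at 2 h (adjusted p = 0.9996), -0.04 with TMG at 2 h (0.71) and -0.48 with TMG at 6 h (0.0016). MGEA5, on a single TMM scale over all libraries, stood at 43.2 and 36.0 CPM with OSMI-2 at 6 h against 166.9, 97.3 and 129.8 in DMSO. With TMG at 6 h it stood at 241.8, 249.4 and 247.9 CPM against 130.7, 149.7 and 157.9. At 2 h its groups did not overlap either, with the same directions. Of the markers listed for the HEK293 line, VIM stood at 287 to 989 CPM, KRT18 at 15.7 to 151 and NEFL at 13.0 to 31.3, while NEFM was at 0.273 to 2.78 and PAX2 at 1.14 to 4.31. The hepatocyte, blood, squamous and adrenal markers had no gene group of their own here, so no level can be given for them. Of the fibroblast markers COL1A1 reached 24.5 CPM and COL3A1 1.04, and DCN had no gene group of its own.

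Per kilobase of bins and on a single TMM scale over all libraries, SQLE, the squalene epoxidase, was the highest in DMSO at 2 h of the TMG experiment, at 89.2 ± 2.3 CPM per kb (SD, n = 3), followed by DHCR7, which reduces the last precursor to cholesterol, at 54.9 ± 2.8. SC5D (31.5 ± 2.0) and IDI1 (30.5 ± 0.78) did not differ beyond their spread, and INSIG1 (27.4 ± 0.70), HMGCS1 (22.4 ± 1.9) and FDFT1 (19.2 ± 0.96) came after them. In DMSO at 2 h of the OSMI-2 experiment the order was another one, with DHCR7 first at 116 CPM per kb, then SQLE (61.7) and FDFT1 (50.1), and with INSIG1 (19.8), IDI1 (9.77), HMGCS1 (8.15) and SC5D (5.86) lowest. The level of FDFT1 per kb is a low estimate, since its width includes a bin of 3105 bases with a mean of 50.5 counts per library. Short bins held many counts for their width. In DMSO of the TMG experiment SQLE_E002, of 6 bases, had a mean of 595.5 counts per library, and SQLE_E013, of 534 bases, had 1502. Values per kb thus depend on how a gene is cut into bins, and the orders given are not a ranking of transcript levels.

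The levels of single members differed between the experiments by several fold before any drug. SC5D stood at 13.96 ± 1.6 CPM in DMSO at 2 h of the OSMI-2 experiment and at 74.9 ± 4.8 in that of the TMG experiment, IDI1 at 17.7 ± 1.9 and 55.2 ± 1.4, and HMGCS1 at 32.7 ± 3.0 and 89.9 ± 7.6. FDFT1 went the other way, with 285 ± 45 and 109 ± 5.5 CPM, as did DHCR7, with 317 ± 65 and 150 ± 7.6. The members lower in the OSMI-2 experiment included those with the lowest transcript GC content (SC5D 38.6%, HMGCS1 40.2%, IDI1 41.1%), and the members higher in it had the highest (DHCR7 58.3%, FDFT1 48.6%). The dependence on GC content differed between the experiments as given above, and its part in these levels was not tested.

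**Figure D1:**
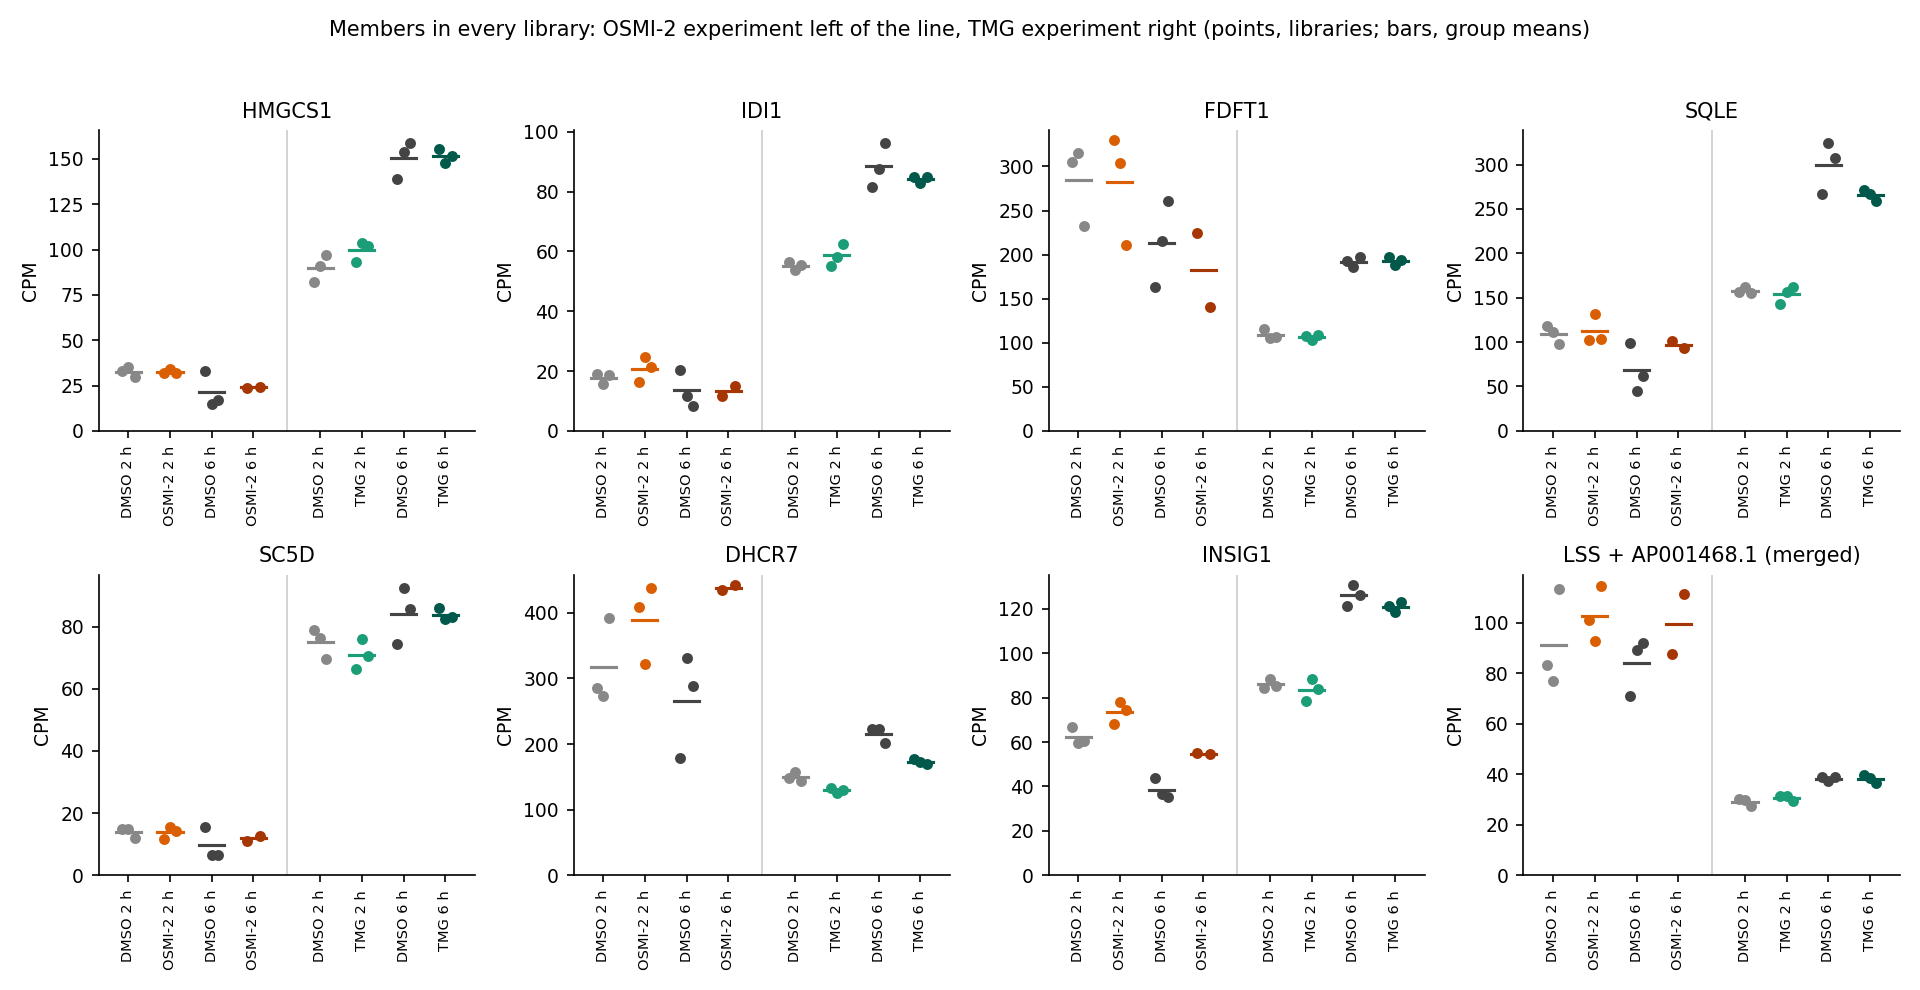
Level of each member in every library, in CPM on 1 TMM scale over all 23 libraries (axes from 0), by group, with points for libraries and bars for group means, the OSMI-2 experiment left of the line and the TMG experiment right of it. In the TMG experiment SQLE runs from 158 CPM on average in DMSO at 2 h to 300 in DMSO at 6 h, while in the OSMI-2 experiment the DMSO 6 h libraries spread widely, with a mean of 68.6 and an SD of 27.5.

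The clearest change of these genes was with time in DMSO alone, in the TMG experiment. Between 2 h and 6 h, 6 of the 7 members rose, by 1.34 to 1.75 times, and SC5D did not pass the test. Among all 12294 genes tested in this comparison 16.3% were higher and 29.6% lower, and the median log2 difference was 0.566 over the members and -0.071 over all genes. Since the members were chosen with earlier results of these data known, this contrast is a description and no independent test. The comparison is of solvent alone, and it is the background against which the drugs were set at each time.

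Among the early enzymes, HMGCS1, which makes the precursor of mevalonate, stood at 95.6, 104 and 110.1 CPM in the DMSO libraries of 2 h (a, b and c) and at 155, 161 and 164 in those of 6 h. Its log2 difference was 0.63 ± 0.072 (SE; adjusted p = 2.05e-07, edgeR quasi-likelihood test with Benjamini-Hochberg adjustment, as for all adjusted p-values of genes below). All 6 h libraries were above all 2 h libraries. IDI1, which interconverts the isoprenoid building blocks, rose from 66.1, 61.7 and 63.0 to 90.8, 91.7 and 99.7 CPM (0.57 ± 0.073, 1.1e-06), again with no overlap. FDFT1 is the squalene synthase, the first enzyme committed to sterols. It rose from 135, 121 and 121 to 215, 195 and 204 CPM (0.70 ± 0.071, 3.4e-08).

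SQLE, which catalyses a rate-limiting step after squalene, had the greatest difference of the members. It stood at 182, 187 and 177 CPM at 2 h and at 298, 340.1 and 319 CPM at 6 h (0.81 ± 0.071, adjusted p = 3.2e-09, a fold of 1.75). The lowest library of 6 h was far above the highest of 2 h. DHCR7, at the end of the pathway, rose from 174, 182 and 163 to 249, 233 and 209 CPM (0.42 ± 0.075, 8.5e-05). INSIG1, the sterol-dependent anchor of SREBP2, rose from 98.5, 102 and 97.2 to 135, 137 and 131 CPM (0.44 ± 0.068, 1.5e-05). Neither gene's libraries overlapped between the times.

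SC5D, a late desaturase of the sterol ring, was the exception. Its libraries stood at 92.0, 87.6 and 79.1 CPM at 2 h and at 83.0, 96.8 and 88.7 at 6 h, and the groups overlapped. The log2 difference was 0.05 ± 0.078 with an interval (95%) of -0.10 to 0.21 (adjusted p = 0.60), and it turned to -0.02 with the GC trend of each library removed. The group that merges LSS with AP001468.1 was higher at 6 h (0.28 ± 0.080, adjusted p = 0.0059), at 35.3, 34.4 and 31.2 CPM against 43.4, 39.0 and 40.1.

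The rise was seen in most bins of the members concerned, but it was smaller in the first bin of transcription than in the last. Log2 differences of the first and last bin were 0.309 and 1.01 in FDFT1, 0.401 and 0.678 in HMGCS1 and 0.343 and 0.52 in DHCR7. They were -0.183 and 0.52 in INSIG1, 0.72 and 0.815 in SQLE and 0.477 and 0.59 in IDI1. The cause of this unevenness was not tested. Among bins with a mean of at least 10 counts, all 6 h libraries exceeded all 2 h libraries in 12 of 12 bins of SQLE (log2 differences of 0.72 to 0.875), 11 of 11 of DHCR7 (0.343 to 0.52), 6 of 6 of IDI1 (0.477 to 0.617), 11 of 12 of FDFT1 and 10 of 11 of HMGCS1. INSIG1 was less even, with 5 of 7 bins and a range of -0.183 to 0.551. SC5D had 0 of 5 such bins, with differences from -0.233 to 0.139. For the merged group it was 4 of 10. The share of all bins of the series with such an order was not computed, so these counts have no background beside them.

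**Figure D2:**
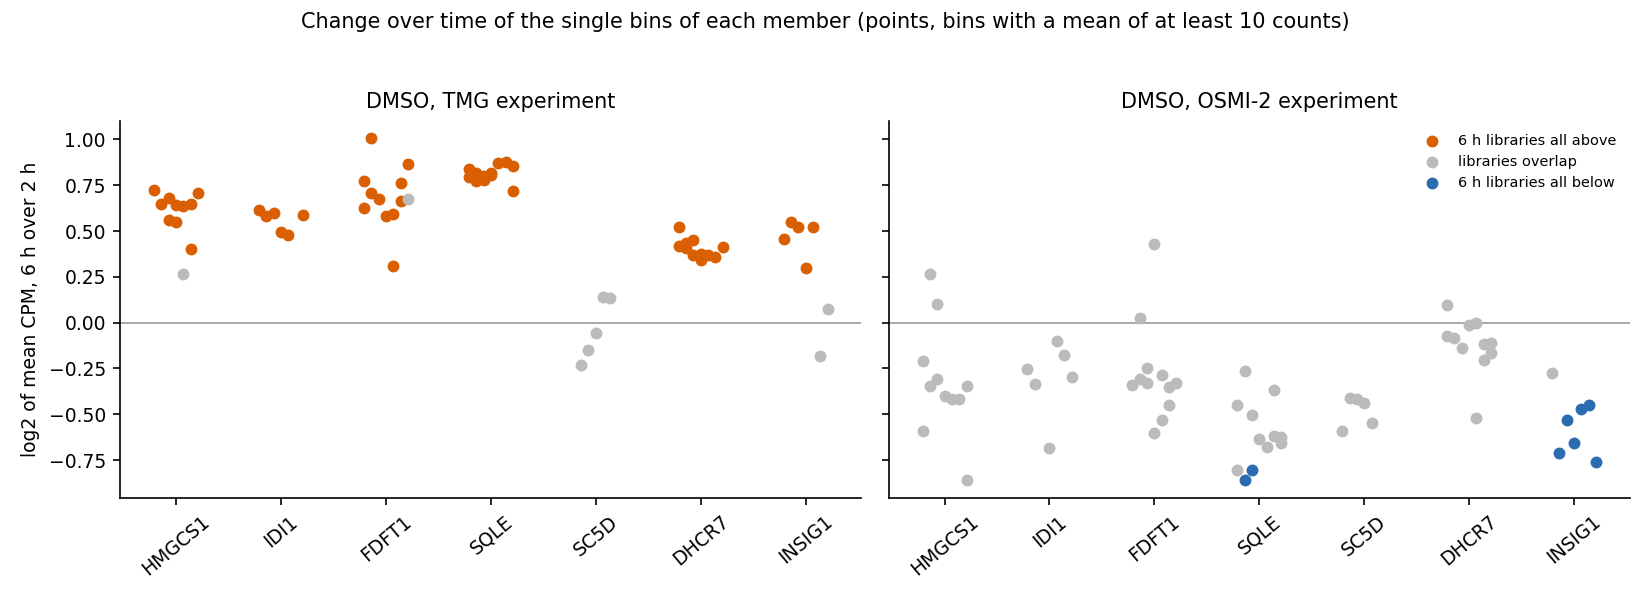
Log2 difference of each bin of the members between DMSO at 6 h and 2 h in the TMG experiment (left) and the OSMI-2 experiment (right). Points are bins with a mean of at least 10 counts, coloured by whether all 6 h libraries lay above, all below or overlapped those of 2 h: bins of SQLE lie between 0.72 and 0.875 in the TMG experiment, and bins of SC5D lie on both sides of 0 there.

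The rest of the pathway moved with these members, though not as a whole. Of 12 other sterol enzymes tested (13 listed), 9 rose and 2 fell, with a median log2 difference of 0.486. Those that rose included ACAT2 (0.79), MVK (0.73), MSMO1 (0.58), HSD17B7 (0.56), MVD (0.54), EBP (0.24) and FDPS (0.18). PMVK (-0.58) and TM7SF2 (-0.38) fell, the latter at 0.019 with the GC trend removed. PMVK phosphorylates mevalonate phosphate, between MVK and MVD in the same chain.

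Of 6 genes of the SREBP machinery, 2 rose, namely SREBF2, which encodes SREBP2 (0.18), and INSIG2 (0.49). SREBF1 (-0.08, adjusted p = 0.41) and SCAP (0.08, 0.39) did not pass. In uptake and transport 3 of 5 tested rose, STARD4 (0.65), NPC1 (0.59) and TMEM97 (0.30). Fatty acid genes known as SREBP1 targets gave 6 rises and 2 falls of 10. SCD (0.51), ACACA (0.50), LPIN1 (0.40), ACLY (0.37), FASN (0.28) and ELOVL6 (0.27) rose, and the desaturases FADS1 (-0.27) and FADS2 (-0.28) fell.

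Genes of the opposing sterol sensor LXR gave 0 rises and 3 falls of 6 tested (7 listed), where 29.6% of all genes were lower. The sterol exporter ABCG1 (-0.47) fell, with the receptors NR1H3 (-0.33) and NR1H2 (-0.24, and 0.070 with the GC trend removed). Of 4 genes for turnover of sterol enzymes 1 rose and 2 fell. The calls of the 6 members stood under each alternative and without any 1 library, whereas of the 30 list genes called 14 kept their call with all libraries in 1 fit and 23 with the GC trend removed.

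The same comparison within the drug, TMG at 6 h against TMG at 2 h, was added after the DMSO values were seen and uses other libraries. All 7 members rose, where 23.2% of 12258 genes were higher. FDFT1 stood at 203 ± 4.6 CPM against 120.2 ± 3.9 (log2 0.76 ± 0.042, adjusted p = 3.7e-15), SQLE at 279 ± 7.2 against 174 ± 9.7 (0.69), HMGCS1 at 160 ± 3.6 against 112 ± 5.1 (0.51), and INSIG1 at 127 ± 1.7 against 94.1 ± 4.9 (0.44). IDI1 (0.42) and DHCR7 (0.32) followed. SC5D had the least difference, 88.2 ± 1.9 against 80.0 ± 5.0 CPM (0.14 ± 0.049, adjusted p = 0.015), and its call was lost with the GC trend removed (0.051, adjusted p = 0.26) and without library a of TMG at 6 h (0.123, 0.073).

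In the OSMI-2 experiment the members did not rise from 2 h to 6 h in DMSO. In edgeR 0 of the 7 passed (2 had an unadjusted p under 0.05, SQLE and INSIG1, and DESeq2 called INSIG1 lower at adjusted p = 0.027), where 4.59% of 12343 genes were higher and 14.0% lower. All 7 log2 differences were negative, with a median of -0.505 against -0.253 over all genes. These differences rest on the DMSO 6 h libraries that stand apart, as described above.

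INSIG1 stood at 67.7, 61.2 and 55.9 CPM at 2 h and 44.4, 37.7 and 35.7 at 6 h, with no overlap (log2 -0.65 ± 0.246, adjusted p = 0.060). SQLE stood at 120, 115 and 90.3 against 100.3, 47.0 and 62.2 CPM (-0.63 ± 0.269, 0.092), with library a of 6 h among the 2 h values. HMGCS1 stood at 33.7, 36.3 and 27.3 against 33.4, 15.5 and 17.1 CPM (-0.56 ± 0.284, 0.16). In HMGCS1 too it was library a that lay within the range of 2 h, the library with the other GC dependence. SC5D, at 15.2, 15.2 and 11.2 against 15.7, 6.93 and 6.63 CPM (-0.505), and IDI1, at 19.2, 15.9 and 17.2 against 20.8, 12.03 and 8.58 CPM (-0.34), had library a above the range of 2 h and libraries b and c below it. FDFT1 was at 309.6, 324 and 216 against 165, 223 and 264 CPM (-0.38), and DHCR7 at 289, 280.3 and 363 against 181, 343 and 293 CPM (-0.19). In FDFT1 and DHCR7 alike library a was the lowest of its group, whereas in the other members it was the highest. The part of its GC dependence in these positions was not tested. Bin by bin, all 6 h libraries lay below all 2 h libraries in 6 of 7 bins of INSIG1 and 2 of 12 of SQLE, and in 0 bins of the other members. The share of all bins in that order was not computed. The first and last bin of transcription stood at 0.103 and -0.859 in HMGCS1, 0.095 and -0.521 in DHCR7 and -0.368 and -0.806 in SQLE. Of the members, only SC5D had the lower value in its first bin (-0.591 and -0.55). In the merged LSS group all 6 h libraries lay above all 2 h libraries in 7 of 12 bins, by up to 1.903 on the log2 scale. By annotation, all of these bins belong to models of AP001468.1 alone. By position, E006 among them lies directly between E005 and E007, which also belong to LSS, so it is not apart from the span of LSS. In the tested bins that also belong to LSS the libraries overlapped, at -0.139, -0.25, -0.216 and -0.179.

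Without that library 5 of 7 members were lower at 6 h: SC5D (-1.01), HMGCS1 (-0.98), SQLE (-0.97), IDI1 (-0.74) and INSIG1 (-0.73). That fit called 3573 of 12334 genes lower. The result also hung on the scaling. With the plain library total the member median was 0.133 and that of all genes 0.315. It was -0.186 and 0.041 with TMM over genes only, and -0.609 and -0.334 with median-of-ratios factors. The member median less that of all genes was thus -0.182, -0.227 and -0.275 under these scalings. Of the listed genes, 6 of 12 other sterol enzymes fell, MSMO1 (-1.23), ACAT2 (-0.88), MVD (-0.86), PMVK (-0.85), MVK (-0.76) and NSDHL (-0.76), with ELOVL5 (-0.81), and 0 of these 7 calls were kept with the plain total, with TMM over genes only or without library a of DMSO at 2 h.

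**Figure D3:**
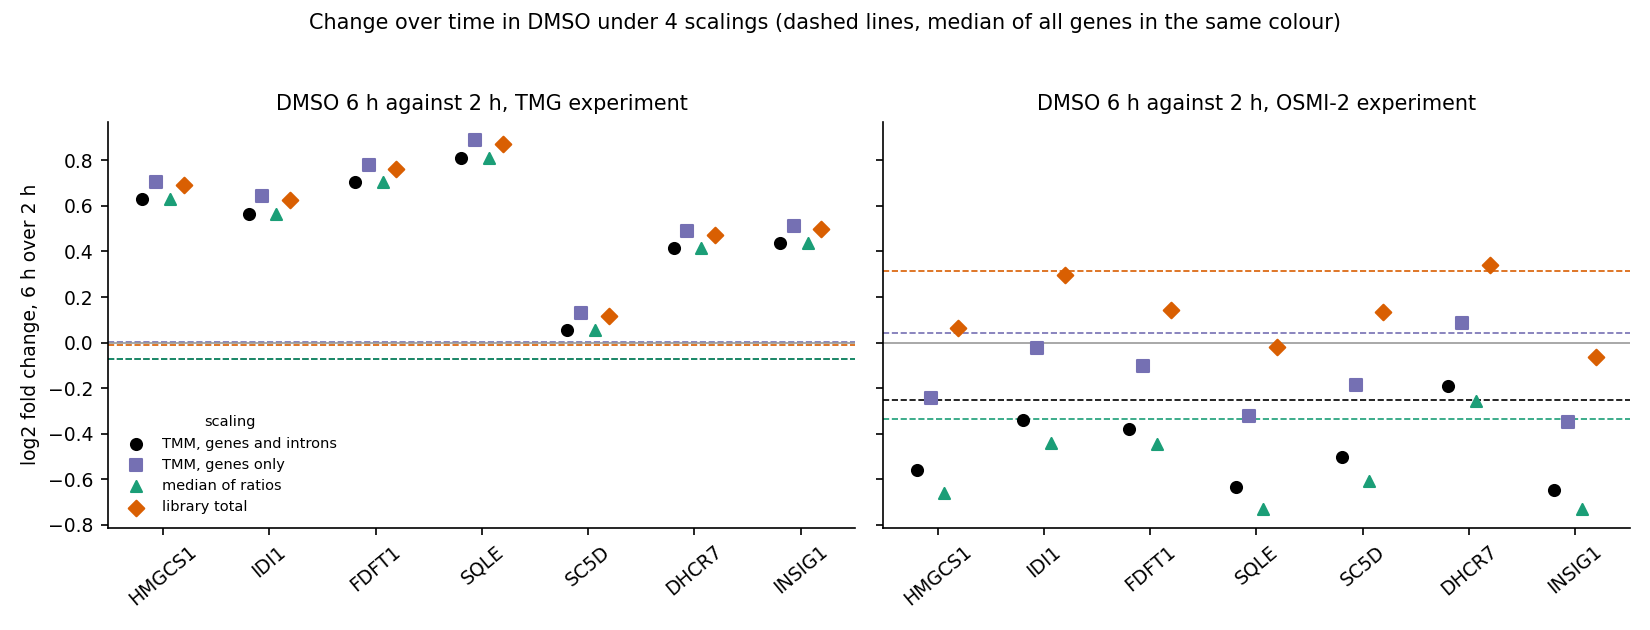
Log2 difference of each of the 7 members between 6 h and 2 h in DMSO under 4 scalings of the libraries (points), with the median of all genes under the same scaling (dashed lines), in the TMG experiment (left) and the OSMI-2 experiment (right). In the TMG experiment all points lie above the dashed lines, and in the OSMI-2 experiment the points shift with the scaling, HMGCS1 from -0.56 to 0.066 with the plain library total, while most stay below the line of their own colour.

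OSMI-2 libraries themselves gave no rise with time either. From 2 h to 6 h in OSMI-2, an added comparison, 0 of the 7 members and 0 of 12492 genes passed (0%; 3 members and 3621 genes had an unadjusted p under 0.05 in edgeR). INSIG1 stood at 42.6 ± 2.7 CPM at 6 h (n = 2) against 59.5 ± 7.8 at 2 h (log2 -0.48, adjusted p = 0.099) and HMGCS1 at 18.8 ± 0.74 against 26.5 ± 3.1 (-0.50, 0.099). Both had no overlap. IDI1 (-0.71), FDFT1 (-0.68), SC5D (-0.29), SQLE (-0.27) and DHCR7 (0.13) did not pass either. With the GC trend removed HMGCS1 (-0.48), IDI1 (-0.67) and INSIG1 (-0.40) passed as lower, at adjusted p = 0.032, 0.044 and 0.040, in a fit that called 886 of 11483 genes lower and 1066 higher.

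The difference between the experiments in the DMSO time effect was tested as an interaction, added after the 2 time effects were seen. It passed in 5 of 7 members, all higher in the TMG experiment, where 9.61% of 12577 genes were called higher. SQLE differed by 1.60 ± 0.309 (log2, SE; adjusted p = 0.0052), HMGCS1 by 1.34 ± 0.327 (0.017), INSIG1 by 1.24 ± 0.214 (0.0030), FDFT1 by 1.24 ± 0.257 (0.0078) and IDI1 by 1.07 ± 0.333 (0.043). DHCR7 (0.78, 0.080) and SC5D (0.71, 0.18) did not pass. The member median was 1.235 and that of all genes 0.288. The number called was 0 with the plain library total, 3 with TMM over genes only and 6 with the GC trend removed, and 3 to 7 with 1 library left out. IDI1 lost its call with TMM over genes only (adjusted p = 0.15) and in most fits with 1 library left out (0.062 to 0.105). HMGCS1 lost its call with TMM over genes only (0.058) and without library a of DMSO at 2 h of the TMG experiment (0.052). The interaction shares its DMSO libraries with the comparisons given above and is no separate evidence.

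**Figure D4:**
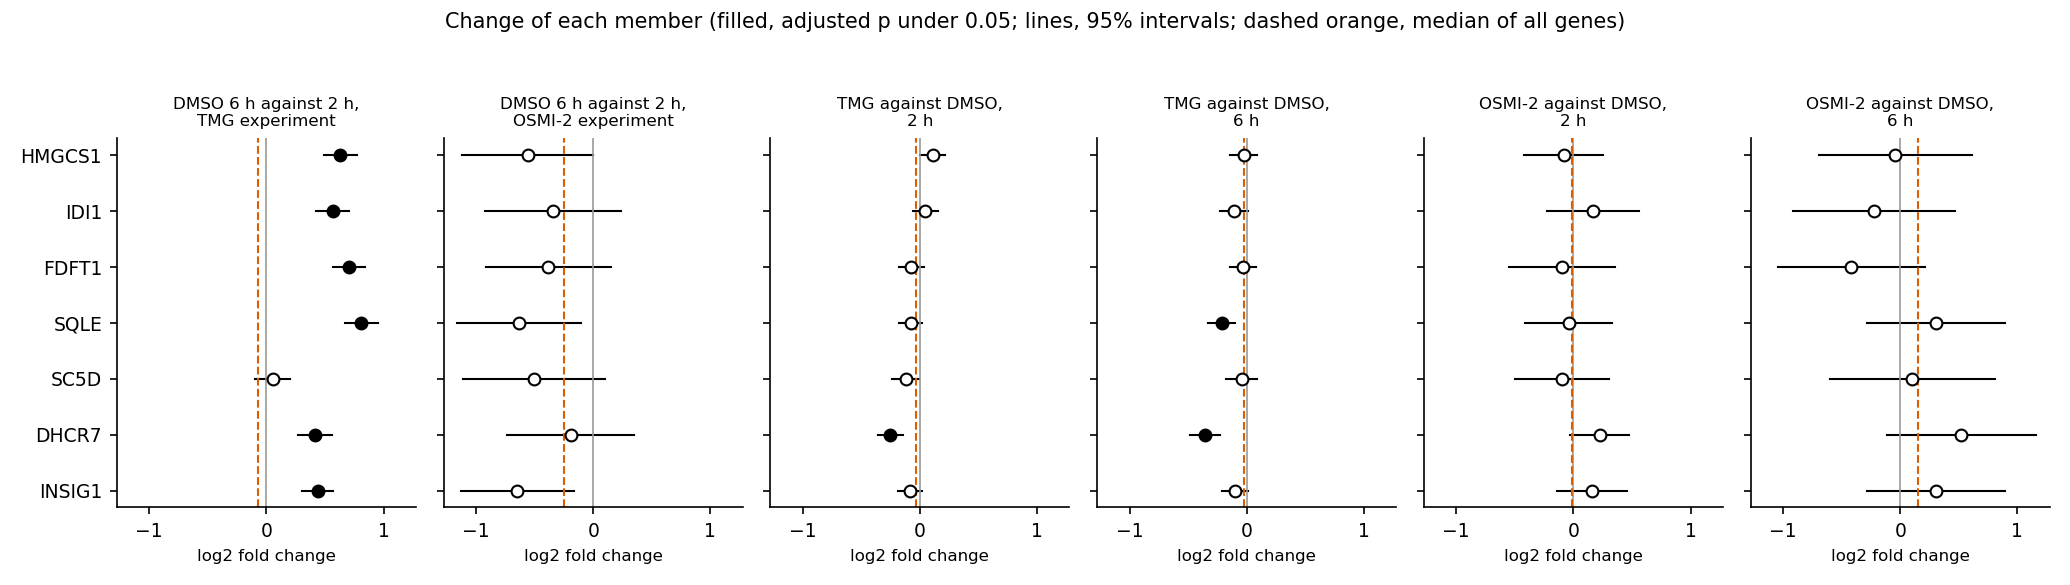
Log2 difference of each member with its interval (95%) for 6 h against 2 h in DMSO and for each drug against DMSO, filled where the adjusted p was under 0.05, with the median of all genes as a dashed line. In the TMG experiment 6 members lie well above 0 with time, SQLE highest at 0.81, and differences with the drugs are closer to 0, with DHCR7 lower under TMG at both times.

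Among the comparisons with the drugs, DHCR7 was lower with TMG at both times and SQLE at 6 h. At 2 h, 1 of 7 members passed, where 1.25% of 12361 genes were higher and 6.67% lower. DHCR7 stood at 172, 180.3 and 162 CPM in DMSO and 151, 139 and 142 in TMG, with no overlap (log2 -0.25 ± 0.053, adjusted p = 0.0042). The call was lost without library b of TMG at 2 h (-0.23, 0.053) and with all libraries in 1 fit (-0.21, 1.0). The upper enzymes were close to DMSO: HMGCS1 stood at 94.9, 104 and 109 against 106, 114 and 112 CPM (0.11, 0.24) and SQLE at 181, 185 and 176 against 162, 173 and 179 (-0.08, 0.37). IDI1 (0.05), FDFT1 (-0.07), INSIG1 (-0.09) and SC5D (-0.12) did not pass either.

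Of the listed genes 9 fell with TMG at 2 h. They included 4 of 12 other sterol enzymes, HSD17B7 (-0.33) and EBP (-0.30) among them, and also NPC1 (-0.20), TMEM97 (-0.22), ELOVL5 (-0.17) and LPCAT3 (-0.19). Of these 9 calls, 3 stood with the plain library total, 4 with TMM over genes only, 0 with all libraries in 1 fit, and 1 without library c of TMG.

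At 6 h of TMG 2 of 7 members were lower, where 1.19% of 12103 genes were higher and 4.84% lower. DHCR7 stood at 253, 238 and 212 CPM in DMSO and 187, 184 and 178 in TMG (log2 -0.36 ± 0.065, adjusted p = 0.0054), and SQLE at 303, 347 and 324 against 286, 284 and 271 (-0.21 ± 0.059, 0.043). In neither gene did the groups overlap. IDI1 (92.4, 93.7 and 101 against 89.6, 88.0 and 88.9 CPM; -0.11, 0.32) and INSIG1 (138, 139.8 and 133 against 128, 126 and 129 CPM; -0.10, 0.33) had all TMG libraries below DMSO but did not pass. HMGCS1 and FDFT1 (each -0.03) and SC5D (-0.04) lay at DMSO. The DHCR7 call was lost without library b of TMG (adjusted p = 0.054) and with all libraries in 1 fit (1.0), and the SQLE call without DMSO library b or c or any TMG library (0.081 to 0.23), with TMM over genes only (0.075) and with all libraries in 1 fit (1.0). With the GC trend removed IDI1 passed as well (-0.13, adjusted p = 0.048), where 746 of 11158 genes were lower.

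Of the listed genes 8 were lower with TMG at 6 h, among them 5 of 12 other sterol enzymes, which included PMVK (-0.45), HSD17B7 (-0.37), MVK (-0.35) and TM7SF2 (-0.31). SREBF1 (-0.40), NPC1 (-0.26) and FADS1 (-0.38) were lower too. Of the 8 calls 1 stood without library b of TMG and 0 with all libraries in 1 fit. The TMG effect was not shown to differ between 6 h and 2 h in any member (DHCR7 -0.09, adjusted p = 0.84; SQLE -0.11, 0.75), where 0.0242% of 12399 genes passed. IDI1 (-0.14), HMGCS1 (-0.12), SC5D (0.097), FDFT1 (0.061) and INSIG1 (0.007) were the others.

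With OSMI-2 at 2 h no member passed the test. In edgeR 0 of 7 members and 0 of 12343 genes passed (0%; 0 members and 160 genes had an unadjusted p under 0.05, and DESeq2 called 0 members and 1 gene), and drug and DMSO libraries overlapped in every member. DHCR7 stood at 244, 237 and 285 CPM in DMSO and 313, 269.7 and 312 in OSMI-2 (log2 0.22, interval -0.03 to 0.47). SQLE was at 101, 96.9 and 70.9 against 78.4, 109.8 and 73.9 CPM (-0.04), HMGCS1 at 28.4, 30.7 and 21.4 against 24.5, 28.6 and 22.9 (-0.08), and INSIG1 at 57.1, 51.7 and 43.9 against 52.1, 65.4 and 53.1 (0.16). The spread was wider than in the TMG experiment: the SE of the DHCR7 difference was 0.128 at 2 h of OSMI-2 and 0.053 at 2 h of TMG. IDI1 (0.16), FDFT1 (-0.10) and SC5D (-0.10) did not pass either, and each had an adjusted p of 0.9996.

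At 6 h of OSMI-2, with 2 treated libraries, 0 of 7 members passed in edgeR (0 at an unadjusted p under 0.05, and 0 in DESeq2), where 2.57% of 12484 genes were higher and 2.37% lower. DHCR7 stood at 201, 373 and 318 CPM in DMSO and 427 and 427 in OSMI-2 (log2 0.52 ± 0.325, adjusted p = 0.33), and INSIG1 at 49.3, 41.0 and 38.8 against 53.9 and 52.6 (0.31, 0.56). In both the OSMI-2 libraries were above all DMSO libraries. SQLE stood at 111, 51.0 and 67.5 against 99.1 and 90.3 CPM (0.31, 0.57), with DMSO library a above both. HMGCS1 was at 37.1, 16.8 and 18.5 against 23.4 and 23.5 CPM (-0.04) and SC5D at 17.5, 7.52 and 7.19 against 10.8 and 12.3 (0.10). Again it was DMSO library a that was the highest.

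Without DMSO library a 4 members were called higher with OSMI-2 at 6 h, in a fit that called 4247 of 12435 genes higher: SQLE (0.73, adjusted p = 0.011), SC5D (0.69, 0.0073), HMGCS1 (0.46, 0.024) and INSIG1 (0.46, 0.020). IDI1 was at 23.1, 13.1 and 9.31 against 11.4 and 14.5 CPM (-0.22) and FDFT1 at 183, 242 and 287 against 220.1 and 136 (-0.42). The median of all genes was 0.149, and -0.24 with the plain library total. Of the lists, the mevalonate enzymes MVK (113 ± 6.8 against 54.3 ± 15 CPM; 1.06 ± 0.295, adjusted p = 0.022) and MVD (229 ± 24 against 108 ± 28 CPM; 1.09 ± 0.305, 0.022) were higher, calls that were lost with the plain total, with TMM over genes only, without DMSO library c and without either OSMI-2 library, and for MVD also without DMSO library b (adjusted p = 0.067). SREBF2 (0.50, 0.33) and FASN (1.11, 0.053) did not pass.

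The drug effects were compared directly. The OSMI-2 effect was not shown to differ between 6 h and 2 h in any member, where 0.111% of 12627 genes passed. Its log2 difference between the times was 0.30 in SQLE, 0.25 in DHCR7, 0.15 in SC5D, 0.10 in INSIG1, -0.008 in HMGCS1, -0.36 in FDFT1 and -0.44 in IDI1. At 2 h the OSMI-2 and TMG effects differed in 0 members and 0 of 12608 genes (0%; 1 member, DHCR7, and 1025 genes had an unadjusted p under 0.05 in edgeR). There DHCR7 differed by 0.53, INSIG1 by 0.305, IDI1 by 0.17, SQLE by 0.097, SC5D by 0.085, FDFT1 by 0.036 and HMGCS1 by -0.13. At 6 h the drugs differed in DHCR7, which was 1.04 ± 0.284 higher (log2) with OSMI-2 relative to its DMSO than with TMG (adjusted p = 0.024). Of 12563 genes 16.9% were called higher in that test, so 1 of 7 members is near the background. SQLE (0.68, 0.14) and INSIG1 (0.57, 0.073) did not pass, nor did SC5D (0.31), HMGCS1 (0.15), IDI1 (0.052) and FDFT1 (-0.23). Listed genes that did were MVK (1.57), FASN (1.44), PMVK (1.39), MVD (1.29), SREBF1 (1.13), SMPDL3A (1.07), TM7SF2 (1.01), NR1H3 (0.86) and FADS1 (0.72). The DHCR7 call was lost with the plain total or with TMM over genes only, and 0 to 6 members passed with 1 library left out.

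FDFT1 and SQLE each hold 1 bin that the authors class as a detained intron. In the files' hg19 coordinates these are FDFT1_E011, bases 11689180 to 11695896 of the plus strand of chromosome 8, and SQLE_E011, bases 126030970 to 126033025 of the same strand. Both were minor: FDFT1_E011 held 0.208% to 1.38% of the counts of intron and gene together in the 23 libraries. The DMSO 6 h group of the OSMI-2 experiment held the highest shares of that experiment, and library b of DMSO at 6 h in the TMG experiment (0.995% and 0.502%) lay within its range for both introns. There FDFT1_E011 took 1.38%, 0.935% and 0.895%, against 0.208%, 0.272% and 0.269% in DMSO at 2 h, 0.211%, 0.330% and 0.276% in OSMI-2 at 2 h, and 0.530% and 0.599% in OSMI-2 at 6 h. SQLE_E011 took 0.919%, 1.32% and 0.501%, against 0.103%, 0.233% and 0.0805%, 0.140%, 0.153% and 0.181%, and 0.211% and 0.119% in the same order. Its counts were small, 5, 10 and 3 in DMSO at 2 h and 10 and 8 in OSMI-2 at 6 h.

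With OSMI-2 at 6 h both introns were lower than in DMSO. FDFT1_E011 stood at 2.56, 2.28 and 2.59 CPM in DMSO and 1.17 and 0.818 in OSMI-2 (log2 -1.33 ± 0.313, adjusted p = 5.3e-05), and SQLE_E011 at 1.03, 0.684 and 0.340 against 0.209 and 0.107 (-2.17 ± 0.480, 1.9e-05). Relative to their genes they were lower by limma as well (-0.89, adjusted p = 0.017, and -2.33, 2.4e-06). Among all detained introns 86.3% of 4677 were lower, and 89.0% relative to their gene, so the pair moved as nearly all introns did. In the authors' deposited table of bin usage for this comparison, both introns passed an adjusted p of 0.05 (FDFT1_E011 0.0178, SQLE_E011 0.00081). No other bin of the members with a group of their own passed. In the merged LSS group, which is given apart, 10 bins passed. The bins with a value numbered 79, those of the merged group included. Over all genes 6.46% of 152564 bins passed. The share among the members' own bins alone was not computed. The authors' deposited tables of the other 3 comparisons called 0 member bins.

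In DMSO of the OSMI-2 experiment both introns were higher at 6 h than at 2 h (FDFT1_E011 1.69 ± 0.283, adjusted p = 3.1e-07; SQLE_E011 2.02 ± 0.465, 7.5e-05), where 88.5% of 4472 introns were higher and 88.3% relative to their gene. These DMSO 6 h libraries are the controls of the OSMI-2 comparison, so the rise with time and the lower value with the drug share them. In DMSO of the TMG experiment both were higher at 6 h as well (1.38, 9.2e-05, and 0.76, 0.027; background 21.0%). Relative to their genes, which rose too, they did not pass (0.62, 0.16, and -0.07, 0.89, limma; background 14.8%).

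At 2 h of OSMI-2 FDFT1_E011 did not pass (0.08, adjusted p = 0.9996; background 0.129%, and 0.0643% relative to the gene), and SQLE_E011 had too few counts for a test. TMG moved neither intron past the test at 2 h (0.29, 0.42, and -0.01, 0.98; background 9.81%, and 0.124% relative to the gene) or at 6 h (-0.02, 0.99, and -0.08, 0.95; background 0.190%, and 0.0957% relative to the gene). In TMG at 6 h FDFT1_E011 took 0.725%, 0.815% and 0.693% of its gene's counts, inside the range of its DMSO libraries at 0.533%, 0.995% and 0.708%.

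**Figure D5:**
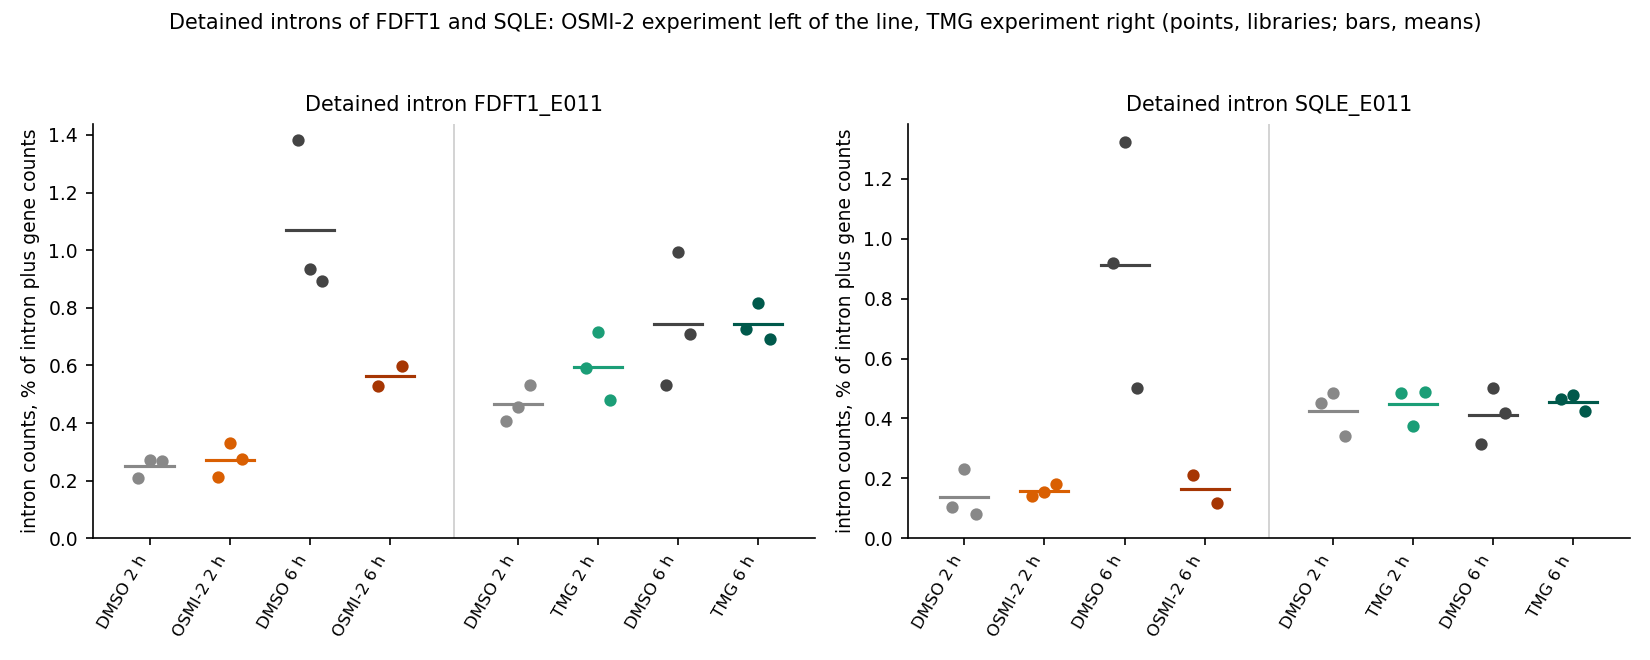
Share of the detained introns FDFT1_E011 and SQLE_E011 in the counts of intron and gene together, in percent, in every library by group. The 3 DMSO 6 h libraries of the OSMI-2 experiment are the highest of that experiment for both introns, from 0.895% to 1.38% for FDFT1_E011 and from 0.501% to 1.32% for SQLE_E011.

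By position in hg19, HMGCS1 lies on chromosome 5 (43289495 to 43313614), INSIG1 on 7 (155089487 to 155101948), FDFT1 and SQLE on 8 (11653083 to 11696821 and 126015423 to 126034528), IDI1 on 10 (1085846 to 1095061) and DHCR7 and SC5D on 11 (71145458 to 71159477 and 121163389 to 121179345). The merged LSS group is on 21 (47608053 to 47613205).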

How the data were processed

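The authors deposited 1 table per drug and time, with whole-number counts per bin and library and, per the file headers, DEXSeq columns for bin usage: a log2 fold change, its p-value and that value adjusted. Reads were aligned with STAR to hg19, per the submitters' processing notes. The counter and its use of strand are not given in the sources used here, so reads of overlapping antisense genes could be included. The LSS group merges overlapping models. Chi-square over degrees of freedom of the 22 library pairs within groups was 4.27 to 297, so no library was entered again within its group. Pairs across groups were not compared.

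From the deposited counts, gene values were summed over bins outside detained introns and tested over all genes with edgeR 4.0.16 (glmQLFit, glmQLFTest, filterByExpr, TMM over genes and introns together, library size the table total) in R 4.3.3. Tests were two-sided, and calls were made at 0.05 after Benjamini-Hochberg adjustment. The SE was obtained by dividing the size of the log2 difference by the root of the F statistic. Introns relative to their gene (log2 of counts plus 1, mean counts of at least 10) were tested with limma 3.58.1. The script was tested on simulated data. CPM beside a fold change are on the scale of that comparison. Alternatives were DESeq2 1.42.0, other scalings (the plain library total is the one in the rule for the genes), no filter, all libraries in 1 fit, each library left out and, for 12083 of 13236 gene groups (91.3%) with a transcript, removal of each library's GC trend. OSMI-2 at 6 h had 2 libraries where the design had assumed 3, and with 1 left out the lone library was assumed to vary like the others. All members are named in every comparison, and list genes where they passed or define their list, but some of them are not reported here. Markers were used for a check of the line alone. The members and lists were chosen with earlier results of these data known.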

Additional observations from a re-analysis of the deposited data

Results flagged for a closer look

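The time effect in DMSO differed between the TMG and the OSMI-2 experiment in 5 members by the interaction test, on the log2 scale by 1.596 in SQLE, 1.341 in HMGCS1, 1.242 in INSIG1, 1.235 in FDFT1 and 1.066 in IDI1, each higher in the TMG experiment. Of 12577 genes 9.61% were called higher in that test. With the plain library total 0 members were called, and IDI1 lost its call in most fits with 1 library left out. The DMSO 6 h libraries of the OSMI-2 experiment, which stand apart in detained introns, enter this difference between the experiments.

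The effect of OSMI-2 relative to that of TMG at 6 h differed in DHCR7, by 1.036. Of 12563 genes 16.9% were called higher in that test, so 1 of 7 members is near the background. The DHCR7 call was lost with the plain library total or with TMM over genes only. In the detained introns the effect of OSMI-2 relative to that of TMG at 6 h differed by -1.149 in FDFT1_E011 and by -1.932 in SQLE_E011. The effect of OSMI-2 at 6 h relative to that at 2 h differed by -1.443 in FDFT1_E011 and by -2.36 in SQLE_E011. Among all detained introns 73.7% of 4677 were lower in the first of these tests and 65.7% of 4693 in the second, so both introns went with most others. These values rest on the same DMSO 6 h libraries, and the part of those libraries was not tested.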

How the results depend on the processing

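The rise of 6 members with time in DMSO of the TMG experiment kept its direction and its call under each alternative run. Calls of single members that were lost in the comparisons with a drug stand beside their results. Log2 differences that turned direction and counts of genes or members called that moved follow, and the cause was not tested. OSMI-2 or TMG stands for the drug against DMSO, DMSO time for 6 h against 2 h, and the DMSO time difference for the TMG less the OSMI-2 experiment. With the Wald test of DESeq2, OSMI-2 at 2 h had 1 gene called, and DMSO time in the OSMI-2 experiment had 1 member called. With all libraries in 1 fit, OSMI-2 at 2 h had HMGCS1 at 0.002 and SQLE at 0.042, and OSMI-2 at 6 h had 3 members called, 5981 genes called and HMGCS1 at 0.158. Under the same setting, TMG at 2 h had 0 members called, 0 genes called and OGT at 0.003, and TMG at 6 h had 0 members called, 2 genes called, HMGCS1 at 0.011 and FDFT1 at 0.009. There, DMSO time in the OSMI-2 experiment had 4 members called and 6133 genes called, and DMSO time in the TMG experiment had 1827 genes called. With the GC trend removed, OSMI-2 at 2 h had HMGCS1 at 0.033 and SQLE at 0.065, and OSMI-2 at 6 h had 3042 genes called. Under the same setting, TMG at 2 h had 551 genes called, and TMG at 6 h had 1628 genes called and FDFT1 at 0.014. There, DMSO time in the OSMI-2 experiment had 2 members called, 4538 genes called and DHCR7 at 0.093, and DMSO time in the TMG experiment had SC5D at -0.021, TM7SF2 at 0.019 and NR1H2 at 0.07. With it, OSMI-2 time had 3 members called and 1952 genes called, and the DMSO time difference had 4226 genes called. With the plain library total, OSMI-2 at 6 h had 0 genes called, SQLE at -0.125, SC5D at -0.349, INSIG1 at -0.092 and the merged LSS group at -0.317, and TMG at 2 h had 603 genes called and OGT at 0.001. Under the same setting, DMSO time in the OSMI-2 experiment had HMGCS1 at 0.066, IDI1 at 0.298, FDFT1 at 0.143, DHCR7 at 0.339, SC5D at 0.133 and the merged LSS group at 0.494, and the OSMI-2 effect over time had 0 genes called. There, the TMG effect over time had 6 genes called, and the drug difference at 6 h had 0 members called and 1303 genes called. With it, OSMI-2 time had 2028 genes called and the merged LSS group at 0.071, and the DMSO time difference had 0 members called, 2644 genes called, SC5D at -0.016 and the merged LSS group at -0.155. With median-of-ratios factors, OSMI-2 at 6 h had 943 genes called and HMGCS1 at 0.143, and DMSO time in the OSMI-2 experiment had 2 members called. With TMM over genes only, OSMI-2 at 6 h had SC5D at -0.147 and the merged LSS group at -0.19, and TMG at 6 h had 1 member called. Under the same setting, DMSO time in the OSMI-2 experiment had 1129 genes called, DHCR7 at 0.088 and the merged LSS group at 0.229, and the OSMI-2 effect over time had 22 genes called. There, the drug difference at 6 h had 0 members called and 1037 genes called, and OSMI-2 time had 467 genes called. With it, the DMSO time difference had 3 members called and 980 genes called. For introns relative to their gene, TMG at 2 h had SQLE_E011 at 0.088, and TMG at 6 h had FDFT1_E011 at 0.042 and SQLE_E011 at 0.172. Under the same setting, DMSO time in the TMG experiment had 0 member introns called and SQLE_E011 at -0.069. With the GC trend removed and no DMSO 6 h library a, DMSO time in the OSMI-2 experiment had 4 members called, 4685 genes called and DHCR7 at 0.159. With 1 library left out at a time, DMSO time in the OSMI-2 experiment had DHCR7 at -0.393 to 0.053, the merged LSS group at -0.112 to 0.115, 519 to 4589 genes called and 0 to 5 members called, and DMSO time in the TMG experiment had SC5D at -0.01 to 0.104 and 1 to 2 member introns called. In the same way, the DMSO time difference had 493 to 7126 genes called and 3 to 7 members called, and OSMI-2 time had the merged LSS group at -0.215 to 0.013 and 0 to 926 genes called. By that measure, OSMI-2 at 2 h had FDFT1 at -0.275 to 0.111, FDFT1_E011 at -0.241 to 0.301, HMGCS1 at -0.211 to 0.041, IDI1 at -0.023 to 0.322, SC5D at -0.244 to 0.019 and SQLE at -0.202 to 0.069, and OSMI-2 at 6 h had HMGCS1 at -0.202 to 0.456, IDI1 at -0.478 to 0.255, the merged LSS group at -0.123 to 0.195, SC5D at -0.116 to 0.694, 0 to 5268 genes called and 0 to 4 members called. Likewise, the drug difference at 2 h had 0 to 272 genes called and 0 to 1 member called, and the drug difference at 6 h had 22 to 9408 genes called and 0 to 6 members called. In the same way, the OSMI-2 effect over time had 0 to 1608 genes called, and TMG at 2 h had the merged LSS group at -0.035 to 0.07, OGT at -0.086 to 0.006, SQLE_E011 at -0.171 to 0.113, 243 to 1212 genes called and 0 to 1 member called. By that measure, TMG at 6 h had FDFT1 at -0.063 to 0.01, FDFT1_E011 at -0.184 to 0.207, the merged LSS group at -0.072 to 0.007, SC5D at -0.091 to 0.02, SQLE_E011 at -0.272 to 0.153, 89 to 1248 genes called and 0 to 2 members called, and the TMG effect over time had 1 to 69 genes called. No paired analysis was possible because the count columns carry letters and not the replicate numbers of the titles. The spread in the OSMI-2 experiment and its scaling limit what can be said of the members there, and counts of SQLE_E011 were as low as 3.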

Other observations

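Across the 23 libraries, with each experiment centred on its own mean, SQLE and INSIG1 followed the mean of the other members most closely (Pearson r of 0.95 and 0.956), then HMGCS1 (0.912), IDI1 (0.829), SC5D (0.682) and FDFT1 (0.594), and DHCR7 least (0.355). Of 11246 genes compared with the member mean, those with the highest r that were no members included TFB1M (0.941), CISD1 (0.937), CD55 (0.936) and PGRMC2 (0.934). These are descriptions over libraries that share their groups, their depth and their dependence on GC content.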
